A study of Mus musculus with 18 samples.

Results

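The genes described here are 10 genes of the Hippo pathway and its transcriptional output, taken from the count table by the Ensembl identifiers that map to their mouse symbols, 10 of 55487 genes in the table. They are the co-activators Yap1 and Wwtr1, the DNA-binding partners Tead1, Tead2, Tead3 and Tead4, the kinases Lats1 and Lats2, and Amotl2 and Ankrd1, which are widely read as YAP targets. They are defined by name and not by a measured value, with earlier results of these data known. All 10 passed the filter on low counts that left 13865 genes for testing.

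The cells were mouse embryonic fibroblasts (MEFs), the connective tissue cells that grow from dissociated embryos, kept for 24 h with vehicle (0 µM uracil, called control), 10 µM uracil or 30 µM uracil. There were 6 libraries at each dose, with replicate numbers 1 to 6, and all 18 were made from total RNA with ribosomal RNA removed. Uracil is a product of the enzyme uridine phosphorylase-1, and the study asked how extracellular uracil acts on fibroblasts. The labels give no strain, sex, passage or embryo of origin. The study's methods call the samples of a dose biological replicates, and p-values of the dose comparisons measure the spread between them. In the test of replicate number each number has 1 library per dose. Its p-values set numbers against the spread left within a number after dose is allowed for.

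In the Hippo pathway, MST kinases activate LATS kinases, which phosphorylate YAP and its relative TAZ (encoded by Wwtr1). Phosphorylated YAP and TAZ are held in the cytoplasm or degraded. Unphosphorylated YAP and TAZ enter the nucleus, bind TEAD proteins and switch on genes such as Ccn1, Ccn2 and Ankrd1. In fibroblasts the pathway is known for its response to matrix stiffness, cell spreading and cell density, and YAP activity is set mostly at the protein level, which transcript counts do not show.

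Each library held 3963932 to 20775298 gene counts. Unaligned read pairs made up 1.72% to 3.59% in 15 libraries and more in the remaining 3, with 54.2% for control replicate 1, 37.9% for 30 µM replicate 6 and 5.24% for 10 µM replicate 6. The study set aside a vehicle sample and a 30 µM sample for human RNA, and kept all 6 samples at 10 µM. The labels do not say which were removed, so every library was kept and results are also given without the 3 libraries above. All 10 fibroblast markers were detected, with summed levels of 20147 to 24206 counts-per-million units (CPM) in the 15 libraries, and Dpt and Lum were near 0 to low (medians of 1.27 and 3.27 CPM). The sum was 33436 CPM in control replicate 1 and 50932 CPM in 30 µM replicate 6, where Col1a1 alone reached 32745 CPM. Among muscle markers, which matter because Ankrd1 is also a cardiac muscle gene, Myod1 was at 0 in every library. The 12 genes summed to at most 17.7 CPM. Most of that sum was Tnnt2, which was detected in every library with a median of 12.1 CPM (3.77 to 16.3).

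Promoter sequence is shown for Ankrd1 and Amotl2, both common target readouts of YAP, and for Lats2, a kinase gene that is itself a known target. Each run holds the 250 bases before a RefSeq transcription start in build GRCm38.p6, read 5′ to 3′ on the strand of the gene, with each copy of the core TEAD motif GGAATG, or of its reverse complement CATTCC, in capitals. The Ankrd1 window is chr19:36119845-36120094 on the minus strand, the Amotl2 window is chr9:102717554-102717803 on the plus strand, and the first of the Lats2 windows is chr14:57746124-57746373 on the minus strand.
Ankrd1: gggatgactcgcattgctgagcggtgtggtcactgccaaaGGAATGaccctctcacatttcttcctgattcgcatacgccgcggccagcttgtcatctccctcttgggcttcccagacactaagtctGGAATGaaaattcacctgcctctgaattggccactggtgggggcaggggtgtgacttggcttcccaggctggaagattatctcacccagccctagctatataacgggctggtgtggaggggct
Amotl2: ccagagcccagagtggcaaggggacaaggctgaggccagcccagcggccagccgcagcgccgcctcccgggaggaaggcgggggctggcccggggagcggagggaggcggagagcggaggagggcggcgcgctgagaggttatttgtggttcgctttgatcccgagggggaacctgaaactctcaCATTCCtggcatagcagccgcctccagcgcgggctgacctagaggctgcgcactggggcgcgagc
Lats2: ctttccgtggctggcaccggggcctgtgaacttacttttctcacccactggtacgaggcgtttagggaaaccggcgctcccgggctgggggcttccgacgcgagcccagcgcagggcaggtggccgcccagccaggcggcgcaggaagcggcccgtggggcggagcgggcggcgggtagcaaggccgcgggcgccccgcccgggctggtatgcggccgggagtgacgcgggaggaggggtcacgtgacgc

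The Ankrd1 window held GGAATG at 2 places, with first bases 210 and 123 bases before the start. The Amotl2 window held CATTCC once, 65 bases before the start. RefSeq windows were found for 8 of the 10 genes, Tead1 and Tead4 being the others, and several genes had more than 1 start, giving 12 windows in all. The motif on either strand was present in 7 of the 12 windows, belonging to 5 genes: Ankrd1, Amotl2, Yap1 (141 bases before the start), Wwtr1 (136 and 170 bases before 2 neighbouring starts, the same copy) and Tead3. It was absent from the windows of Tead2, Lats1 and Lats2, and the Lats2 run accordingly has no capitals. Of all 32851 windows of this length, 12.6% held the motif at least once and 1.02% held it at least 2 times. A match of 6 letters is a description of the window and not a measurement of binding.

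Levels of different genes were compared in transcripts-per-million units (TPM), that is, counts per kilobase of merged exons scaled to a common total. Amotl2, which encodes an angiomotin-family scaffold that binds YAP, had the highest level, with a median of 234.7 TPM over 18 libraries (173.7 to 313.3). Tead2 followed with 97.6 TPM, Yap1 with 90.7 TPM, Ankrd1 with 84.8 TPM and Wwtr1 with 66.8 TPM. Lats1 had 38.2 TPM, Tead3 29.6 TPM, Tead1 20.5 TPM and Lats2 18.2 TPM, and Tead4 was lowest with 5.94 TPM.

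Over the 15 libraries with few unaligned pairs, the ranges of neighbouring genes in this order were separate at 4 of 9 steps: Amotl2 over Tead2, Wwtr1 over Lats1, Lats1 over Tead3 and Lats2 over Tead4. The ranges of Tead2 and Yap1 overlapped, with Tead2 higher in 13 of 15 libraries, and those of Yap1 and Ankrd1 overlapped too, with Yap1 higher in 8 of 15. Ankrd1 was above Wwtr1 in 10 of 15 libraries, Tead3 above Tead1 in 14 and Tead1 above Lats2 in 12. With the length of the longest annotated transcript in place of merged exons, Wwtr1 and Yap1 moved above Tead2, and Lats2 above Tead1. The level of Lats2 is uncertain, since 2955 bases of its exons are shared on the same strand with Gm49361, an annotated gene that received 0 counts in every library.

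**Figure D1:**
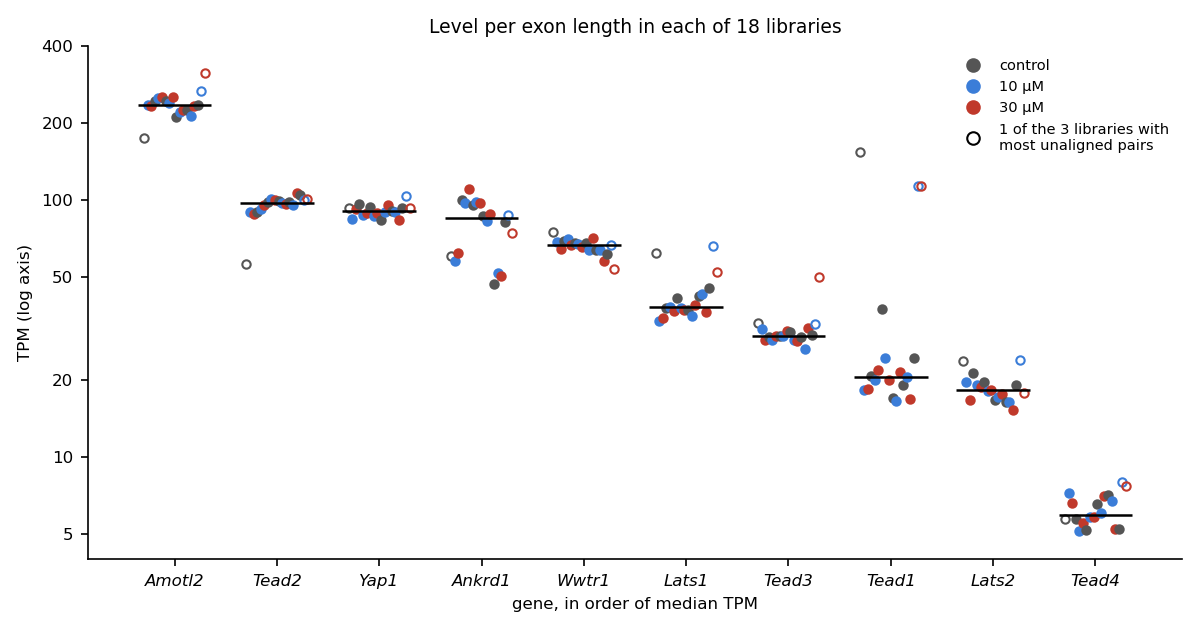
Level of each gene in TPM on a log axis, 1 point per library coloured by dose, with genes in order of their median (black bar). Hollow points are the 3 libraries with most unaligned pairs, in which Tead1 lies far above its other values. Amotl2 is highest and Tead4 lowest in median, with Tead4 between 5.13 and 8.003 TPM.

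No gene of the 10 passed an adjusted threshold of 0.05 in any comparison of doses by edgeR's quasi-likelihood test with Benjamini-Hochberg adjustment over 13865 genes, where 0% of all genes passed. DESeq2 also called 0 of the 10 and 0 of all genes. At an unadjusted p under 0.05, the count was 0 of 10 at 10 µM against control (0.692% of all genes), 1 of 10 at 30 µM against control (4.29%), 0 of 10 at 30 µM against 10 µM (2.33%) and 0 of 10 for any difference among doses (1.53%). DESeq2 gave the same counts at the unadjusted threshold, and in both tools the 1 gene was Amotl2. The 10 genes had a median log2 fold change of -0.019 for 10 µM and 0.019 for 30 µM, beside 0.0059 and 0.012 over all genes tested. In bulk RNA, fewer cells of a type and less RNA per cell cannot be told apart, and this holds for every level given here.

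Yap1 (ENSMUSG00000053110, GRCm39 chromosome 9, 7932000 to 8004661, minus strand) encodes the main nuclear effector of the pathway. Its CPM (lowest, median, highest) was 195.1, 213.1 and 218.5 in control, 193.1, 202.9 and 229.0 at 10 µM and 200.2, 211.9 and 217.7 at 30 µM. The 3 doses overlapped almost completely. Means were 210.7 ± 8.25, 207.3 ± 12.97 and 210.3 ± 7.45 CPM (SD, n = 6 each), with a log2 fold change of -0.024 ± 0.051 (SE) for 10 µM and -0.0031 ± 0.051 for 30 µM. The 95% interval at 30 µM ran from -0.11 to 0.10, the narrowest of the 10 genes.

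Wwtr1 (ENSMUSG00000027803, chromosome 3, 57363067 to 57483331, minus strand), which encodes TAZ, had 180.1, 197.3 and 213.6 CPM in control (lowest, median, highest). The values were 184.4, 195.2 and 205.0 CPM at 10 µM and 158.4, 191.3 and 203.2 CPM at 30 µM. The lowest of all 18 was 30 µM replicate 6 and the highest was control replicate 1, both among the 3 libraries with most unaligned pairs, and the doses overlapped. On the log2 scale the difference from control was -0.015 ± 0.061 for 10 µM and -0.080 ± 0.061 for 30 µM (95% interval -0.21 to 0.05).

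The 4 TEAD genes encode the proteins through which YAP and TAZ reach DNA. Tead1 (ENSMUSG00000055320, chromosome 7, 112278522 to 112506014, plus strand) had 57.7, 74.4 and 500.2 CPM in control, 57.0, 66.8 and 360.2 CPM at 10 µM and 57.8, 68.6 and 382.2 CPM at 30 µM. The highest value at each dose came from the library of that dose with most unaligned pairs, and the remaining values lay between 57.0 and 81.3 CPM except control replicate 3, at 124.7 CPM. Its log2 fold changes were -0.34 ± 0.68 (10 µM) and -0.32 ± 0.68 (30 µM, 95% interval -1.76 to 1.13), the widest of the 10 genes. Its sign turned with 1 library: without control replicate 1 it was 0.54 and 0.56, and without 10 µM or 30 µM replicate 6 it was -1.12 and -1.13. Without all 3 libraries it was -0.26 ± 0.18 and -0.28 ± 0.18.

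Tead2 (ENSMUSG00000030796, chromosome 7, 44865172 to 44883071, plus strand), the TEAD gene with the highest level per length, had 74.1, 131.7 and 140.8 CPM in control. The values were 119.6, 127.3 and 136.3 CPM at 10 µM and 120.5, 131.9 and 147.6 CPM at 30 µM. Only control replicate 1 lay below 118.1 CPM. With all libraries the log2 fold changes were 0.068 ± 0.11 (10 µM) and 0.12 ± 0.11 (30 µM), and they were -0.038 ± 0.059 and -0.0031 ± 0.059 without the 3.

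Tead3 (ENSMUSG00000002249, chromosome 17, 28550645 to 28569791, minus strand) had 47.4, 49.1 and 53.6 CPM in control, 42.8, 48.9 and 51.8 CPM at 10 µM and 45.9, 50.01 and 83.6 CPM at 30 µM. The value of 83.6 CPM was that of 30 µM replicate 6, and no other library passed 54.2 CPM. Its log2 fold change at 30 µM was 0.15 ± 0.11 with all libraries and 0.0086 ± 0.055 without the 3. At 10 µM it was -0.038 ± 0.11.

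Tead4 (ENSMUSG00000030353, chromosome 6, 128201251 to 128277786, minus strand) was the least counted, with 31 to 213 counts per library. It had 7.62, 8.36 and 10.7 CPM in control, 7.63, 9.65 and 11.4 CPM at 10 µM and 8.07, 9.42 and 11.6 CPM at 30 µM. The 3 doses overlapped, with the upper end at 10 µM and 30 µM set by replicate 6. Compared with control, log2 fold changes of 0.13 ± 0.12 (10 µM) and 0.10 ± 0.12 (30 µM) were found for Tead4 (95% interval of the latter -0.15 to 0.35).

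The kinases LATS1 and LATS2 phosphorylate YAP and TAZ. Lats1 (ENSMUSG00000040021, chromosome 10, 7556736 to 7592226, plus strand) had 114.6, 129.2 and 187.2 CPM in control, 103.5, 118.1 and 194.7 CPM at 10 µM and 108.9, 116.5 and 163.9 CPM at 30 µM. The highest value at each dose again came from the library with most unaligned pairs. Lats1 had log2 fold changes of -0.063 ± 0.15 (10 µM) and -0.14 ± 0.15 (30 µM). Without the 3 libraries the value at 30 µM was -0.14 ± 0.064, with an unadjusted p of 0.0388 and an adjusted p of 0.944, and Lats1 was the only member with an unadjusted p under 0.05 in that setting. There 4.33% of all 13888 genes had such a p at 30 µM, while at 10 µM 0 of the 10 and 4.72% of all genes did.

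Lats2 (ENSMUSG00000021959, chromosome 14, 57926960 to 57995845, minus strand), itself a known target of YAP in a feedback loop, had 42.4, 49.6 and 59.5 CPM in control. The values were 41.7, 47.8 and 58.7 CPM at 10 µM and 40.8, 45.2 and 47.9 CPM at 30 µM. All 6 libraries at 30 µM lay within the range of the control libraries or below its lower end, and 30 µM was lower than control in 5 of 6 replicate numbers. Lats2 had log2 fold changes of -0.024 ± 0.087 (10 µM) and -0.14 ± 0.087 (30 µM, 95% interval -0.32 to 0.05, unadjusted p = 0.134, adjusted p = 0.932).

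Amotl2 (ENSMUSG00000032531, chromosome 9, 102593836 to 102610617, plus strand) had 293.8, 400.3 and 415.9 CPM in control, 364.0, 410.4 and 440.3 CPM at 10 µM and 382.8, 426.5 and 548.2 CPM at 30 µM. The lowest of all 18 was control replicate 1 and the highest was 30 µM replicate 6, while the others overlapped between doses. At 30 µM it was higher than control in 6 of 6 replicate numbers, with a log2 fold change of 0.20 ± 0.091 (95% interval 0.0070 to 0.39, unadjusted p = 0.0428, adjusted p = 0.931). Without control replicate 1 the value was 0.13 (unadjusted p = 0.116), without 30 µM replicate 6 it was 0.12 (unadjusted p = 0.141), and without the 3 libraries it was 0.052 ± 0.049 (unadjusted p = 0.311). For 10 µM the value was 0.095 ± 0.091.

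Ankrd1 (ENSMUSG00000024803, chromosome 19, 36089352 to 36097506, minus strand), which encodes an ankyrin-repeat protein of the nucleus and sarcomere, had 34.9, 62.6 and 71.8 CPM in control. The values were 37.8, 62.3 and 72.6 CPM at 10 µM and 38.6, 59.5 and 80.9 CPM at 30 µM. The 3 doses spanned nearly the same range, and the spread within a dose (SD of 14.8 to 15.9 CPM) was far larger than the differences between the means of 57.5, 58.0 and 59.5 CPM. Ankrd1 had log2 fold changes of 0.0042 ± 0.21 (10 µM) and 0.042 ± 0.21 (30 µM, 95% interval -0.41 to 0.49). The model had dose as its only term, so these SEs include the spread between replicate numbers. Reads of Ankrd1 may include some from Gm56671, which overlaps 724 bases of its exons on the other strand, because the strand setting of the counting is not known. The same holds for shorter overlaps of 116 to 229 bases with genes on the other strand at Yap1, Tead2, Lats1 and Lats2.

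**Figure D2:**
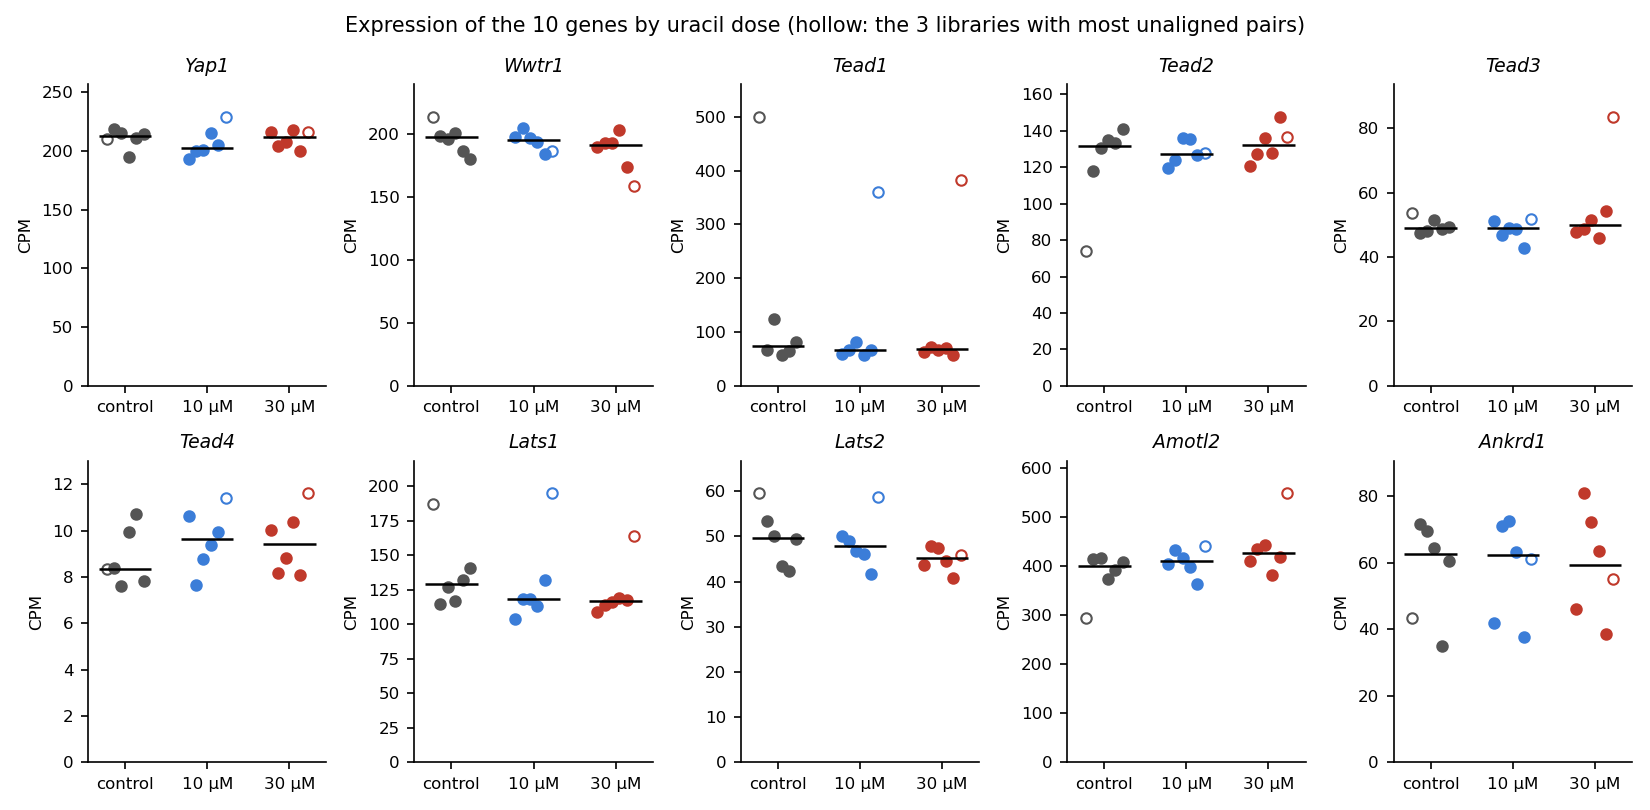
CPM of each gene at 0 µM (control), 10 µM and 30 µM uracil, 1 point per library in order of replicate number, with the median of 6 as a black bar and an axis from 0 in every panel. Hollow points are the 3 libraries with most unaligned pairs, which hold the highest values of Tead1 and Lats1 at every dose.

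**Figure D3:**
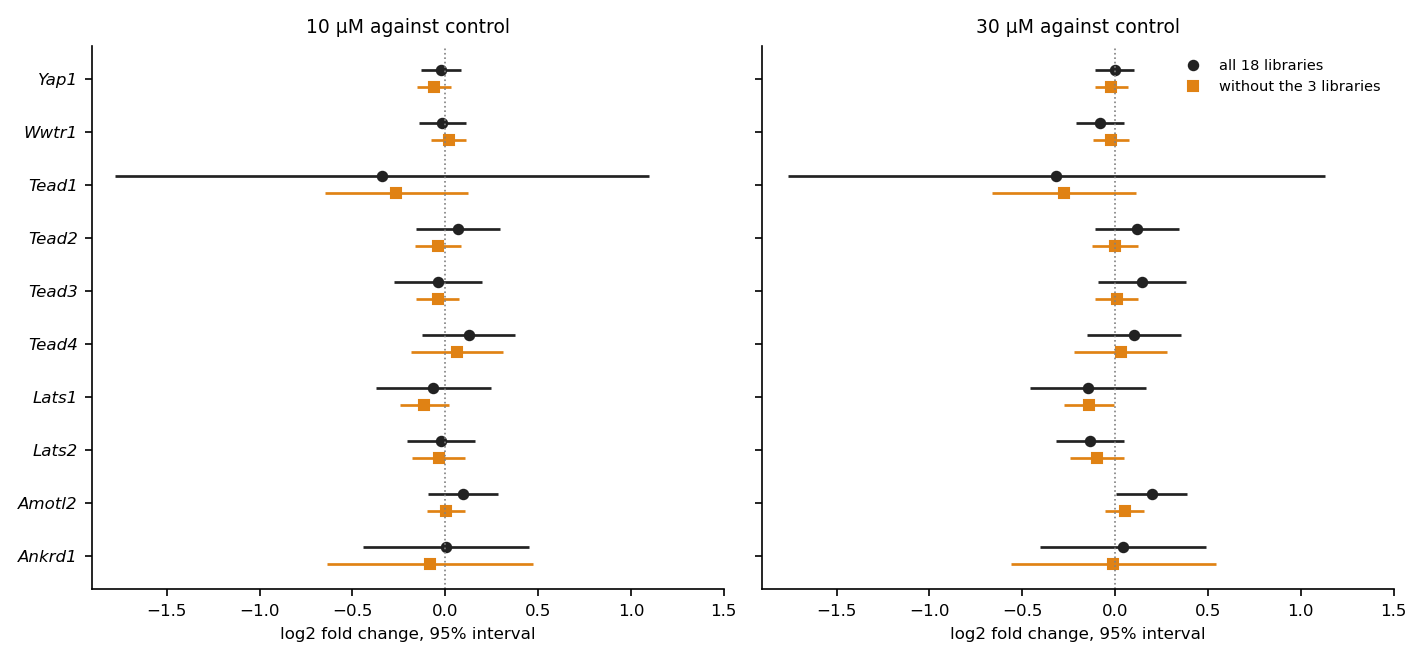
Log2 fold change of each gene against control with its 95% interval, for 10 µM (left) and 30 µM (right), over all 18 libraries (black) and without the 3 libraries with most unaligned pairs (orange). All intervals at 10 µM cross 0, the interval of Amotl2 at 30 µM starts at 0.0070 with all libraries, and that of Lats1 at 30 µM ends at -0.0082 without the 3.

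The 3 libraries with most unaligned pairs carried the largest departures of single values. Tead1 in control replicate 1 was 7.42 times the median of the 5 other controls, with ratios of 5.45 for 10 µM replicate 6 and 5.69 for 30 µM replicate 6. Ratios at least as large were found for 33, 23 and 72 of 13865 genes in these libraries, and for 9 genes, Tead1 included, in all 3. Lats1 was 1.48, 1.65 and 1.42 times the median of the others, the only other member above its dose mates in all 3 libraries by over 1.4 times.

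Within the TEAD family, Tead1 made up 61.7% of the summed TPM of the 4 genes for control replicate 1, 44.6% for 10 µM replicate 6 and 41.7% for 30 µM replicate 6. Its share elsewhere was 10.5% to 22.2%, and Tead2 made up 57.5% to 66.4%. Control replicate 3, which held the 22.2%, had 3.09% unaligned pairs. Tead3 was above all of its dose mates in all 3 libraries, at 1.10, 1.06 and 1.72 times their median in control replicate 1, 10 µM replicate 6 and 30 µM replicate 6. Lats2 was above the median of its mates in all 3 too, at 1.21, 1.25 and 1.03 times, and Ankrd1 was below it at 0.672, 0.968 and 0.868 times. Tead2 was at 0.556 times the median of the others in control replicate 1 but 1.01 and 1.07 times in the replicate 6 libraries. The part of unaligned pairs, depth or RNA of another species in these values was not tested.

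**Figure D4:**
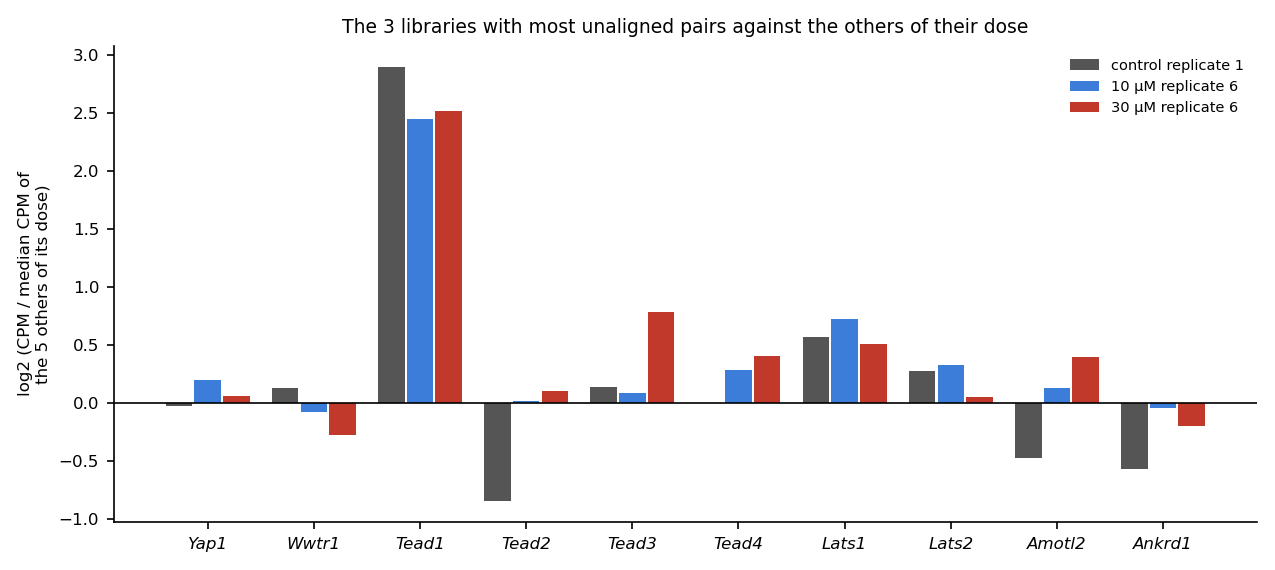
Log2 ratio of the CPM of each gene in control replicate 1, 10 µM replicate 6 and 30 µM replicate 6 to the median of the 5 other libraries of the same dose. Tead1 stands at 2.45 to 2.89 in all 3 libraries and Lats1 at 0.50 to 0.72, Tead3 and Lats2 are also above 0 in all 3, Ankrd1 is below 0 in all 3, and the other genes differ in sign between the 3.

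The replicate numbers separated the libraries for Ankrd1. At number 2 its level was 74.6 ± 5.46 CPM and at number 3 it was 71.5 ± 1.58 CPM (SD over the 3 doses). It was 63.8 ± 0.665 CPM at number 4, 59.0 ± 3.31 CPM at number 6, 43.8 ± 2.15 CPM at number 1 and 37.1 ± 1.95 CPM at number 5. Only numbers 2 and 3 overlapped, with 71.2 to 80.9 and 69.7 to 72.6 CPM. The other 4 numbers held separate ranges, the lowest being 34.9 to 38.6 CPM at number 5, and number 2 was 2.01 times number 5 in mean.

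In the test of replicate number with dose in the model, Ankrd1 was the 1 of 10 genes that passed (adjusted p = 9.49e-07), where 12.6% of all genes passed. A smaller p was found for 78 of 13865 genes. At an unadjusted p under 0.05 the count was 4 of 10 (Ankrd1, Tead1, Lats1 and Lats2), beside 26.4% of all genes. The adjusted p of Ankrd1 stayed between 3.35e-07 and 1.4e-05 when each library was left out in turn.

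Without the 3 libraries 4 of 10 genes passed, beside 20.8% of all genes, and 7 of 10 had an unadjusted p under 0.05, beside 32.1%. The 4 were Ankrd1 (adjusted p = 2.35e-10), Lats1 (0.0175), Lats2 (0.0391) and Tead2 (0.0446). Lats1 then ran from 106.2 CPM at number 1 to 140.5 CPM at number 6, Lats2 from 41.6 CPM at number 5 to 50.1 CPM at number 2, and Tead2 from 120.1 CPM at number 1 to 140.8 CPM at number 6. In this setting number 6 rests on its control library alone and number 1 on 2 libraries. DESeq2 over all libraries called 3 of 10, which were Ankrd1, Tead1 and Wwtr1, beside 2989 of all 13865 genes. With all libraries Yap1 had the flattest profile over the numbers, with means of 205.6 to 220.0 CPM (adjusted p = 0.848 by edgeR). Without the 3, the highest mean was 1.05 times the lowest for Yap1 and 1.04 times for Tead3.

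Some markers of other cell types differed between replicate numbers too, while 12.6% of all genes did. The 7 mesothelial markers summed to 118.0 to 168.1 CPM at numbers 1 to 3 and to 276.9 to 402.0 CPM at numbers 4 to 6, and 6 of the 6 tested passed the test of number. The 8 epithelial markers summed to 6.46 to 17.3 CPM at numbers 1 to 3 and 23.3 to 43.8 CPM at numbers 4 to 6, and 1 of the 3 tested passed. The 6 smooth muscle markers, of which fibroblasts express several, summed to 4415 to 4547 CPM at number 5, 4042 to 4897 CPM at number 6 and 4736 to 5547 CPM at numbers 1 to 4, and 3 of 6 passed. Of the fibroblast markers 5 of 10 passed, and of the tested muscle, endothelial, myeloid and neural markers 0 of 7 passed. Ankrd1 had its 2 highest means at numbers 2 and 3, its lowest at number 5 and its next lowest at number 1. The part of these cells in the differences between numbers was not tested.

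Genes upstream and downstream of the 10 were read from 3 lists. Of 30 Hippo kinases and upstream regulators, 0 passed in any dose comparison by edgeR. At an unadjusted p under 0.05 there were 0 at 10 µM and 1 at 30 µM, beside 0.692% and 4.29% of all genes. That 1 was Strn4, a striatin subunit of the phosphatase complex that opposes MST kinases, with a log2 fold change of 0.18 ± 0.059 (unadjusted p = 0.00687, adjusted p = 0.931). Taok1, a kinase that acts on MST, had -0.18 ± 0.091 at 30 µM, and Stk4, the MST1 kinase itself, had 0.085 ± 0.081 at 10 µM. The list's median was -0.0046 at 10 µM and 0.062 at 30 µM, and without the 3 libraries the latter was -0.029.

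Of 15 transcriptional cofactors and repressors, 13 were tested and 0 passed in any dose comparison. At 30 µM 1 was under the unadjusted threshold, beside 4.29% of all genes. It was Vgll4, whose protein competes with YAP for TEAD, at 0.17 ± 0.072 (unadjusted p = 0.029, adjusted p = 0.931). Smad4, a partner of TGF-β signalling, had -0.13 ± 0.11 at 10 µM, and Srf, a factor of the actin response, had 0.12 ± 0.094 at 30 µM. The median of the cofactors was -0.059 at 10 µM and 0.064 at 30 µM, and without the 3 libraries the latter was -0.071. Of the 22 YAP-TEAD target genes 0 passed. With all libraries 0 had an unadjusted p under 0.05 at either dose, beside 0.692% and 4.29% of all genes. Without the 3 libraries, 1 of the 22 had such a p at 10 µM and 0 at 30 µM, beside 4.72% and 4.33%. The median difference of the targets on the log2 scale was -0.024 for 10 µM and 0.014 for 30 µM, and without the 3 libraries the latter was -0.0041. With all libraries, the targets with the smallest p were Nuak2, a kinase, and Asap1, a regulator of Arf proteins, at 10 µM (-0.17 ± 0.17 and -0.23 ± 0.27). At 30 µM they were Rbms3, an RNA-binding protein, and Arhgef17 (-0.093 ± 0.064 and 0.16 ± 0.14).

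By replicate number, 11 of the 22 target genes passed, 3 of the 30 upstream genes and 3 of the 13 cofactors, beside the 12.6% of all genes. DESeq2 called 12, 11 and 5, beside 2989 of all 13865 genes, where edgeR called 1745. With 1 library left out at a time, 9 to 15 of the targets passed. The counts were then 1 to 13 for the upstream genes, 2 to 8 for the cofactors and 1272 to 3498 for all genes. Leaving out control replicate 6 gave 13 upstream genes and 7 cofactors, beside 3271 of 14019 genes. Leaving out control replicate 1 gave 10 and 8, beside 3498 of 13977. The 1 upstream gene was found when 10 µM replicate 6 was left out, beside 1361 of 13912 genes. Igfbp3, a binding protein of insulin-like growth factors, ran from 27.5 ± 1.89 CPM at number 6 to 178.6 ± 14.03 CPM at number 1 (adjusted p = 1.81e-10). Ccn2, a matricellular protein and a standard YAP target, ran from 306.3 ± 10.7 CPM at number 5 to 664.2 ± 6.14 CPM at number 6. The number with the highest level was thus not the same for these genes.

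F3, which encodes tissue factor, was lowest at number 5 with 44.9 ± 3.01 CPM and highest at number 2 with 93.4 ± 4.63 CPM. Ccdc80, a secreted matrix protein, was lowest at number 6 with 287.5 ± 1.21 CPM and highest at number 2 with 705.7 ± 23.6 CPM. Of Ankrd1 and the 11 targets that passed, 7 of 12 were lowest at number 5, where 18.8% of all 1745 genes past the threshold were lowest. Number 2 was highest for 5 of 12 and number 6 for another 5, beside 20.3% and 26.9% of the 1745, and number 6 holds 2 of the 3 libraries with most unaligned pairs. Without those 3, 8 of 12 were lowest at number 5, 4 were highest at number 2 and 4 at number 6. The shares of the 1745 were then 18.7%, 19.0% and 20.5%. Ankrd1 and F3 were among the genes lowest at number 5 and highest at number 2, while Igfbp3 and Ccdc80 were lowest at number 6. Among the cofactors, Junb and Jun, subunits of the AP-1 factor that often binds beside TEAD, ran from 92.2 ± 26.1 and 126.6 ± 8.59 CPM at number 1 to 201.5 ± 3.61 and 216.8 ± 8.86 CPM at number 2.

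Fosl1, another AP-1 gene, was called with 13.3 ± 1.43 CPM at number 5 and 28.2 ± 10.97 CPM at number 6. Upstream, the called genes were Wwc1, which encodes the KIBRA scaffold, Nf2, which encodes merlin, and Frmd6, with the highest mean 2.11, 1.36 and 1.25 times the lowest. Wwc1 ran from 27.7 ± 0.918 CPM at number 2 to 58.4 ± 23.5 CPM at number 6, and Nf2 from 65.7 ± 0.940 CPM at number 4 to 89.2 ± 15.9 CPM at number 6. The highest means of Fosl1, Wwc1 and Nf2 thus lay at number 6, with its 2 libraries of many unaligned pairs, and had large SDs. Without those 3 libraries the counts were 8 of 30, 6 of 13 and 11 of 22, beside 20.8% of all genes.

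**Figure D5:**
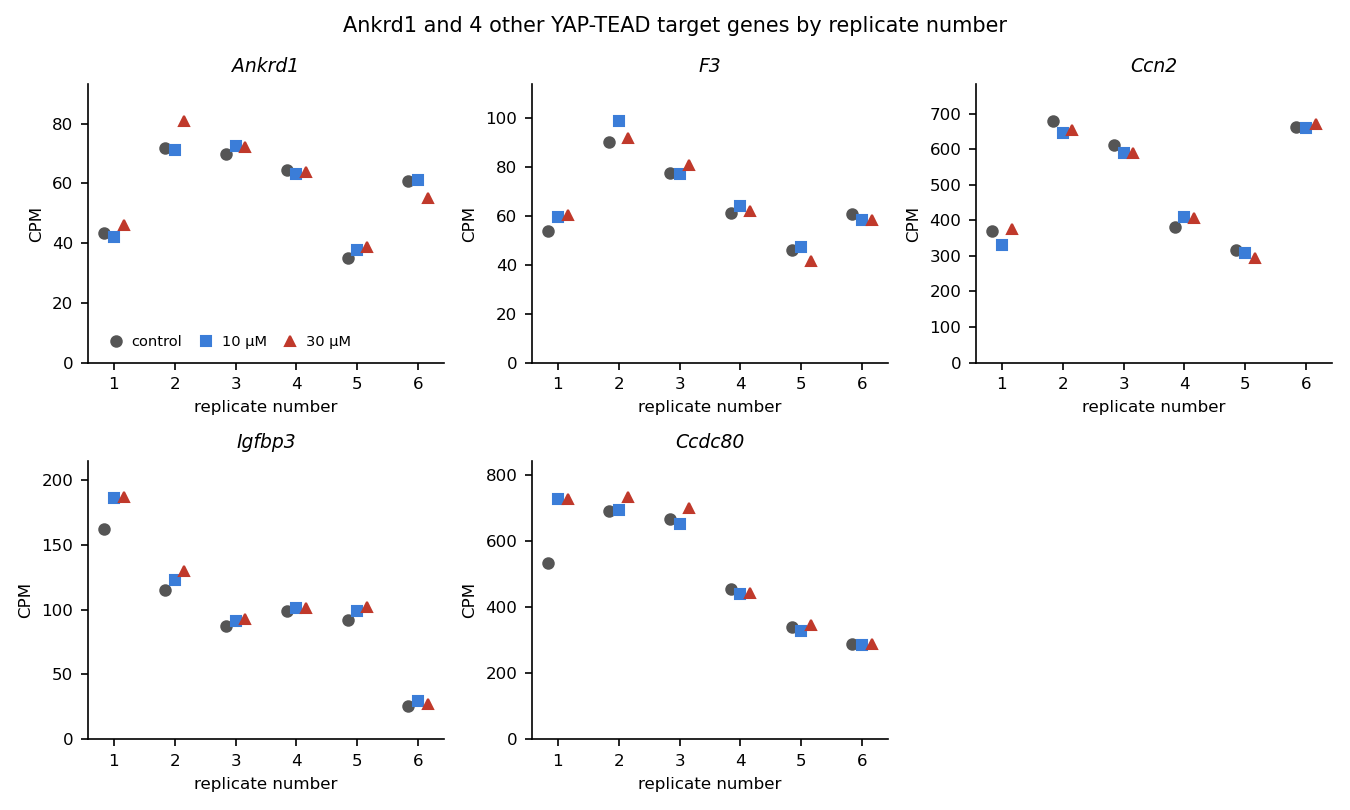
CPM of Ankrd1 and 4 other YAP-TEAD target genes by replicate number, with 1 point per dose. The 3 doses of a number lie close together except for Ccdc80 at number 1, where control is lower, Ankrd1 and F3 are lowest at number 5 and highest at number 2, and Igfbp3 is lowest at number 6.

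The 10 genes did not share 1 pattern across libraries. Over the 15 libraries, Pearson's r of log2 CPM between pairs of the 10 ran from -0.66 (Tead4 and Amotl2) to 0.63 (Lats2 and Ankrd1), with a median of -0.015 and 21 of 45 pairs above 0. Points in these correlations share libraries, depth and replicate numbers, and they are given as descriptions.

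Among 13043 genes with a mean of at least 1 CPM, the closest patterns were also taken for each gene. Ankrd1 was most like Spry1 (r = 0.950, Spearman's coefficient = 0.871) and Plk2 (r = 0.930, Spearman's coefficient = 0.950). Yap1 was most like Dedd (0.899), Wwtr1 like Tgfbr1 (0.913), Tead2 like Cdkn2b (0.936), Tead3 like Flna (0.896), Tead4 like Ccnq (0.873), Lats1 like Jmjd1c (0.930), Lats2 like Tll1 (0.899) and Amotl2 like Amigo3 (0.926). Tead1 was most like Usp34 (0.947) and Lpp (0.945), and without the 2 libraries farthest from its median these were 0.865 and 0.900. Over all 20 such pairs, r was 0.865 to 0.950 with 15 libraries and 0.785 to 0.916 without the 2 farthest. Each pair was 1 of the 2 with the highest r among 13043 genes, so a high r was built into the choice.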

How the data were processed

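Total RNA of MEFs was prepared with a stranded kit that removes ribosomal RNA and sequenced as paired ends. Titles gave each sample its dose and replicate number. The authors deposited raw counts, read pairs assigned to each Ensembl gene with no normalisation. The processing notes name FastQC, HISAT2, SAMtools 1.2 and HTSeq, and a human genome build (GRCh38) although the gene identifiers are mouse. The strand setting and the annotation release are not given in the sources used here. HTSeq leaves out pairs with several matches, so genes with near-identical copies may be undercounted. The study's methods state that a vehicle sample and a 30 µM sample were removed for human RNA. All 18 libraries were kept. 0 count columns lacked a sample. GENCODE M39 (GRCm39) gave symbols for 51731 of 55487 identifiers, and the coordinates. The 5 entries for uncounted pairs were kept out of library sizes.

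Counts were analysed with edgeR 4.0.16 in R 4.3.3. Genes were kept by filterByExpr on dose, libraries were scaled by TMM, and robust quasi-likelihood models were fitted to all genes with dose as the only term, or dose and replicate number for the test of number. Tests were two-sided, F tests having no direction, with Benjamini-Hochberg adjustment over all genes tested and a threshold of 0.05. CPM values are TMM-scaled, log2 CPM used a prior count of 2, and SE is the log2 fold change over the root of F. Other settings were DESeq2 1.42.0, median-of-ratios scaling, scaling by library totals, no low-count filter, each library left out, the 3 libraries with most unaligned pairs left out, and the replicate number as a block. The scripts were tested on simulated data. The members, gene lists and these settings were chosen with earlier results of these data known. From each list, the text names up to 5 genes with the smallest p among those past the threshold for number, and the 2 with the smallest p in each dose contrast against control. 1 gene that this rule picks is not reported here. For each member the 1 or 2 genes of highest r are named.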

Additional observations from a re-analysis of the deposited data

Results flagged for a closer look

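Dixon's test was run on the 6 libraries of each dose for each of the 10 genes, 30 groups in all, of which chance gives about 1.5. It marked 11 values, and 10 of them came from control replicate 1, 10 µM replicate 6 and 30 µM replicate 6, the libraries with most unaligned pairs.

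Tead1 was high in all 3, with 500.2 CPM in control replicate 1, 360.2 CPM in 10 µM replicate 6 and 382.2 CPM in 30 µM replicate 6. Lats1 was high in the same libraries, with 187.2, 194.7 and 163.9 CPM. Tead2 was low in control replicate 1 with 74.1 CPM, and Tead3 was high in 30 µM replicate 6 with 83.6 CPM. Amotl2 was low in control replicate 1 with 293.8 CPM and high in 30 µM replicate 6 with 548.2 CPM. The remaining value was Yap1 in control replicate 4, at 195.1 CPM against 209.8 to 218.5 CPM in the other controls.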

How the results depend on the processing

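No gene of the 10 passed the threshold in a dose contrast against control under any of the settings run, which gave 180 values with 1 library left out and 70 others at each dose. Of these, 15 and 5 had the opposite sign at 10 µM, and 15 and 4 at 30 µM. At 10 µM, without the filter Wwtr1 was 0.0037, and without the 3 libraries with most unaligned pairs Wwtr1 was 0.018, Tead2 -0.038 and Ankrd1 -0.083. At 30 µM, Yap1 was 0.0060 without the filter, and Tead2 was -0.0031 and Ankrd1 -0.010 without the 3 libraries. The cause was not tested. Leaving out 1 library at a time also turned signs at 10 µM (Wwtr1 -0.037 to 0.0076, Tead1 -1.12 to 0.54, Tead2 -0.038 to 0.11, Lats1 -0.21 to 0.041, Lats2 -0.078 to 0.026 and Ankrd1 -0.10 to 0.10) and at 30 µM (Yap1 -0.024 to 0.013, Tead1 -1.13 to 0.56, Tead3 -0.0035 to 0.20 and Ankrd1 -0.063 to 0.14).

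The numbers could not be taken to pair the libraries. Deviations of same-numbered libraries from their dose means correlated at -0.10 to 0.71 (median 0.40), and 16 of 18 pairs were above 0.1. Pairs of different number and dose had a median of -0.065. Of 18 libraries, 14 correlated best with their own number, which is a hint from the data and not from the design. Without the 3 libraries with most unaligned pairs, 8 of 15 did so. The medians were then 0.32 for the same number and -0.14 for different numbers. With the replicate number as a block, 0 of 13865 genes passed in any dose comparison by edgeR. At an unadjusted p under 0.05 there were 161 genes and 0 of the 10 at 10 µM. At 30 µM there were 937 genes and 1 of the 10. That 1 was Amotl2, with a log2 fold change of 0.20 and an unadjusted p of 0.016. With the replicate block and without the 3 libraries, 0 of the 10 had such a p at either dose. The counts over all 13888 genes were then 517 at 10 µM and 604 at 30 µM. The smallest unadjusted p of the 10 at 30 µM was 0.0728. In that setting Tead4 was -0.021 at 10 µM and -0.051 at 30 µM.

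For replicate number, DESeq2 called 3 of the 10 and 2989 genes, and without the 3 libraries 4 and 2890 were called. Leaving out each library gave 1 to 3 of the 10 and 1272 to 3498 genes. The upper count came without control replicate 1, when Ankrd1, Lats1 and Tead1 passed, and without control replicate 6 there were 3 of the 10 and 3271 genes. With the longest transcript in place of merged exons, the order of levels had a rank correlation of 0.903 with the order given. Control replicate 1 had the fewest counts, 31 of them for Tead4.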
